A study of Mus musculus with 5 samples.

Results

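Chemokines are small secreted proteins that guide leukocytes along a gradient, and they are read by receptors that couple to inhibitory G proteins on the migrating cell. Tissue macrophages are a main source of them and also carry several of the receptors, so their transcripts tell which cells a macrophage can call in and which signals it can follow. The genes described here are those of the deposited table whose symbol begins with Ccl, Ccr, Cxcl, Cxcr or Ackr and a digit and that are annotated as protein coding. That choice used names only and found 47 of the 30478 genes in the table, of which 28 had enough reads to be tested.

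Messenger RNA was sequenced from macrophages of the mouse peritoneum, isolated by flow cytometry from C57BL/6 animals. The 2 mutant libraries are from 8-week-old females that were Samhd1 del/del, with both alleles deleted, and also homozygous (ki/ki) for the cGAS-GFP knock-in. The 3 wt libraries are from a 13-week-old male (wt 1), a 13-week-old female (wt 2) and a 9-week-old female (wt 3). SAMHD1 degrades deoxynucleotides and restrains interferon responses, and cGAS is a cytosolic DNA sensor, and the series title concerns whether loss of SAMHD1 activates the RNA sensor MDA5 through cGAS and STING. Both alleles are changed in the same libraries, so a difference cannot be assigned to either, and genotype cannot be told apart from the younger age of the mutants. The 3 wt libraries differ from each other in sex, age or both, so they come from different animals. The 2 mutant libraries share sex and age, and no label says that they are separate animals. The p-values reflect only how these 5 samples vary.

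Some facts of the whole table touch the results. Recovered reads came to 28517346 and 27282354 in mutants 1 and 2 and lay between 30026622 and 33119434 in the wt libraries. Samhd1 was at 1279 and 1431 normalized counts in the mutants against 17823, 16777 and 18274 in wt, and Cgas at 184 and 85.1 in mutant libraries against 974, 1211 and 968 in wt, so both targeted genes were low where the labels place the alleles. The 18S ribosomal RNA gene Rn18s took 5.28% and 4.04% of reads in mutants 1 and 2 and 0.599% to 1.64% in wt. All 7 macrophage markers were detected, among them Csf1r and Adgre1. Of 9 markers of resident large peritoneal macrophages, Gata6 and Timd4 had 0 reads in all 5 libraries. Of the 5 that were tested, only Icam2 was called by limma, lower in the mutant (log2 -0.99, adjusted p = 0.0184). Cd93 of the same list had 53806 and 50811 normalized counts in the mutants and 43631 to 45251 in wt. By limma, Lyz2 (log2 1.58, adjusted p = 0.0159) and Mertk (log2 1.13, adjusted p = 0.0243) of the 7 macrophage markers were higher in the mutant, and Fcgr1 (log2 -1.52, adjusted p = 0.00123) was lower. The monocyte marker Ly6c2 was also lower (log2 -2.08, adjusted p = 0.00367). It was the only gene called of 6 tested markers of small peritoneal or monocyte-derived macrophages, whose median log2 was 0.00. The 7 genes of that list other than Ccr2 summed to 2105 and 3347 normalized counts in the mutants and 1817 to 2619 in wt. B cell markers summed to 5492 and 6541 normalized counts in the mutants and 2606 to 3261 in wt, most of it Ighm. The part of these differences in the results below was not tested. Fewer cells of a type and less RNA per cell cannot be told apart in such libraries.

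In mutant macrophages 5 of the genes chosen by symbol fell and none of them rose. Those described here are the chemokines Ccl5 and Ccl22 and the receptors Ccr3 and Ccr7, which fell by 1.96-fold to 3.08-fold. The other 23 tested members, including the most abundant chemokines, did not pass. The test was limma on log2(normalized count + 2) with adjustment over all 14977 genes tested and a threshold of 0.05. The added 2 shrinks the fold change of low genes. Of the 28 tested members, 17.9% were called lower against 4.89% of all tested genes, and 0 were called higher against 3.71%. At an unadjusted p under 0.05 by limma, 8 members were lower and 2 higher. The share of all tested genes at that unadjusted threshold was not computed, so these 2 counts have no baseline. The edgeR test on recovered reads called the same 5 lower and Cxcr4 higher (4.47% and 4.29% of all tested genes), and DESeq2 called 7 lower and Cxcr4 higher (8.73% and 7.48%). The authors' deposited table called 6 members lower and 1 higher in the mutant, beside 3.66% and 3.51% of all its genes.

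The median log2 fold change of the tested members was -0.26, beside 0.00 for all tested genes, with 18 members negative and 10 positive. Mutant and wt values did not overlap for 10 members that were lower in the mutant, or 35.7% of those tested, where 26.9% of all tested genes were lower without overlap. They did not overlap for 7 members that were higher, or 25.0%, where the share of all tested genes was 24.3%. Of the tested members, Ccl24 alone reached the minimum of 10 normalized counts only through the mutant libraries. The calls changed with the wt library left out. Without wt 1 or without wt 3 limma called 0 members in either direction. Without wt 2 it called 3 lower, among them Ccl5 and Ccl12. With 1 mutant library left out, the log2 fold change was -1.84 to -1.63 for Ccl12, -1.79 to -0.82 for Cxcl10 and 0.87 to 1.79 for Cxcr4. It was -0.14 to 0.58 for Ccl3, -0.34 to 0.23 for Ccl4, 0.00 to 0.55 for Ccr1 and 0.04 to 0.92 for Cxcl16. Over the whole table, the 732 genes called lower became 173 to 286 when 1 wt library was left out.

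**Figure D1:**
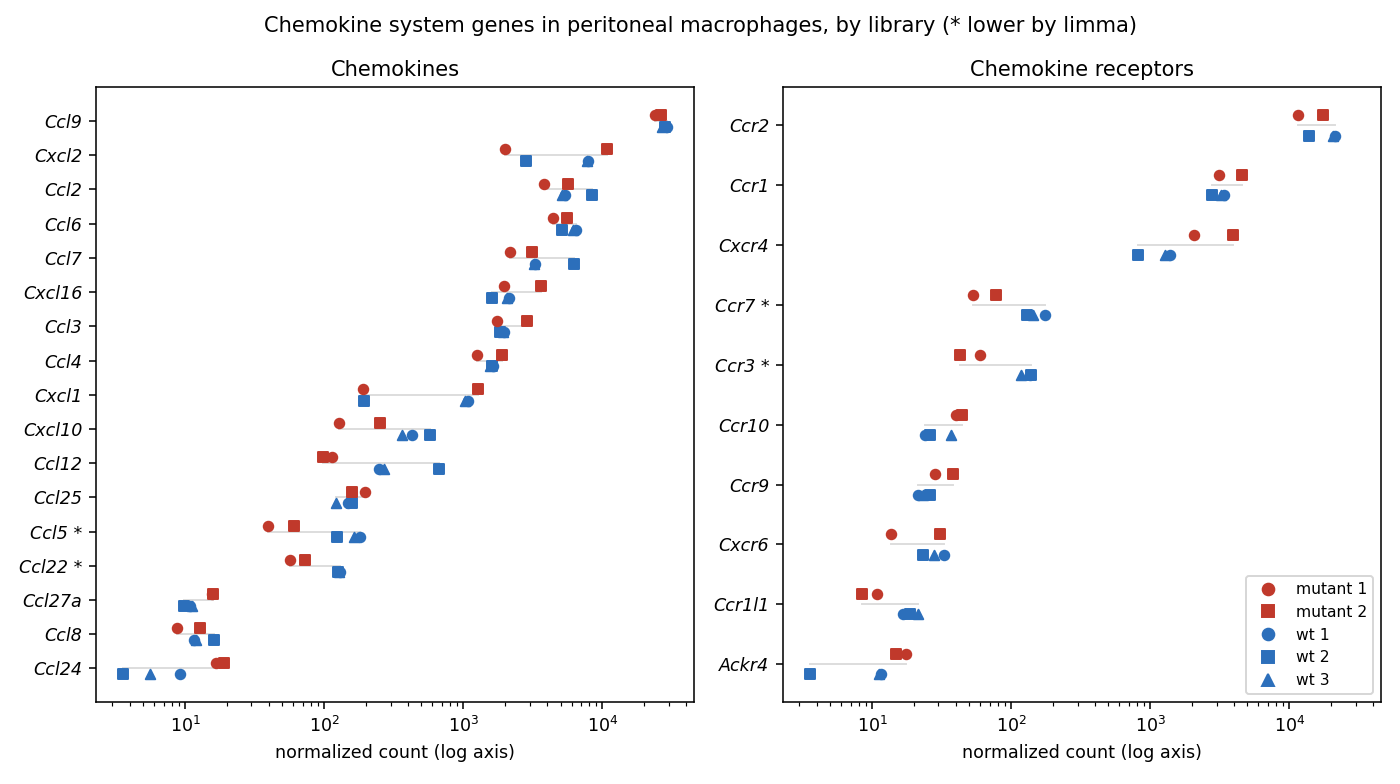
Normalized count (log axis) of 27 tested genes in each library, chemokines on the left and receptors on the right, with mutant libraries in red above the wt libraries in blue. The genes with an asterisk, Ccl5, Ccl22, Ccr3 and Ccr7, have both mutant libraries to the left of all 3 wt libraries, and Cxcl1 spans the widest range within each genotype.

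**Figure D2:**
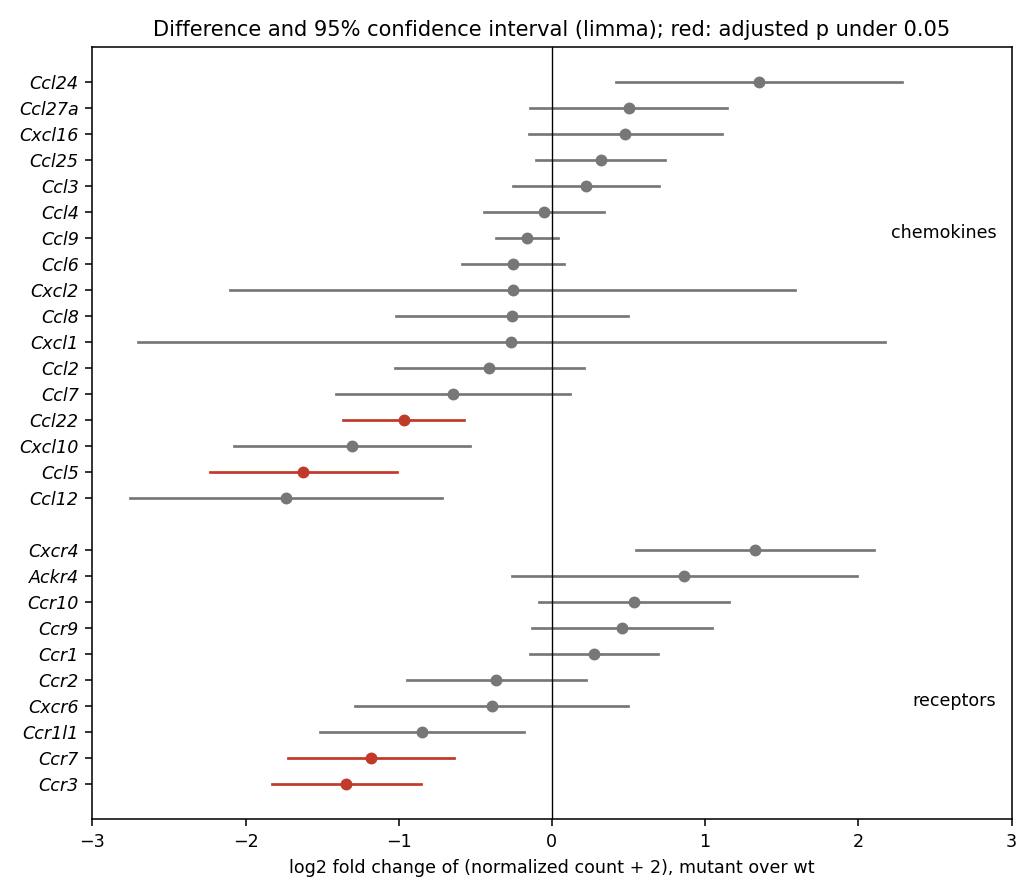
Log2 fold change of 27 tested genes, mutant over wt, as a point with its 95% confidence interval from limma, with Ccl5, Ccl22, Ccr3 and Ccr7, at an adjusted p under 0.05, in red. The red intervals lie below 0, and the intervals of Cxcl1 and Cxcl2 span more than 3 log2 units.

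Promoter sequences of 4 genes are printed because their values bear on the results: Ccr3 fell, Cxcl10 is a classical interferon target, and Cxcl1 and Cxcl2 varied together between libraries. Each is the 250 bases before the RefSeq start on GRCm38.p6, read 5′ to 3′ on the gene's strand. Capitals mark matches on either strand to an interferon-stimulated response element core, GAAANNGAAA, or to the NF-kB consensus. The windows are chr9:124021721-124021970 (plus) for Ccr3, chr5:92348890-92349139 (minus) for Cxcl10, chr5:90890995-90891244 (plus) for Cxcl1 and chr5:90903649-90903898 (plus) for Cxcl2.
Ccr3: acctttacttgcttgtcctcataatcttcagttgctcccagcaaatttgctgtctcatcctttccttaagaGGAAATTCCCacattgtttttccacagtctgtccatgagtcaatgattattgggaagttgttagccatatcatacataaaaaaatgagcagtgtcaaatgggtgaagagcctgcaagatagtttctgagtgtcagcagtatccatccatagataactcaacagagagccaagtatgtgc
Cxcl10: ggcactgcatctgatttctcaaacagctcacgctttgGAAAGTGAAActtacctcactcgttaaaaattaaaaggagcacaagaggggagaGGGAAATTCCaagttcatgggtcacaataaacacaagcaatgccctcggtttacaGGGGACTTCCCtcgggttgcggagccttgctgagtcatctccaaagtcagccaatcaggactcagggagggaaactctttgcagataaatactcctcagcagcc
Cxcl1: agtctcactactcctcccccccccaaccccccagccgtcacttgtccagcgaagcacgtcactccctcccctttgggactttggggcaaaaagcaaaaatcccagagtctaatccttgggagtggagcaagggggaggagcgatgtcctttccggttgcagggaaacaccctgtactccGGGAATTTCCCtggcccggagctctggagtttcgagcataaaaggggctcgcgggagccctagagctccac
Cxcl2: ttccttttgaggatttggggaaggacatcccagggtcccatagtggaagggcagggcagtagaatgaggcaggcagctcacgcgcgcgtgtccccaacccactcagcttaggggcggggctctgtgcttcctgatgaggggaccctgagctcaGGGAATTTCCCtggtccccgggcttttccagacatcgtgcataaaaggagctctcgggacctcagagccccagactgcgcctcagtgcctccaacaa
In Cxcl10 the GAAANNGAAA match begins 213 bases before the start, and NF-kB matches begin at 159 bases and, as an overlapping pair, at 104 and 103. Cxcl1 and Cxcl2 hold the same 11 letters, GGGAATTTCCC, which read as overlapping NF-kB matches beginning 71 and 70 bases before the Cxcl1 start and 97 and 96 before the Cxcl2 start. The Ccr3 match begins 179 bases before its start. Ccl22, which also fell, had a window without a match to either motif, and no window was found for Ccl5 or Ccr7. RefSeq windows were found for 34 of the 47 members, of which 2 (Cxcl10 and Cxcl14) held the GAAANNGAAA core and 11 the NF-kB consensus. Over all 32851 windows of that length the shares were 2.98% and 7.25%, counted per window. A member was counted once if any of its windows held a match, so the units differ. A match is a description of these letters and says nothing of binding.

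Among chemokines that interferon induces in macrophages, 1 of the 6 tested fell. Ccl5 (RANTES, ENSMUSG00000035042, GRCm38 chromosome 11, 83525778 to 83530518, minus strand), which draws T cells and monocytes through receptors that include CCR1 and CCR3, was at 39.1 (mutant 1) and 60.6 (mutant 2) normalized counts, against 180, 124 and 165 in the 3 wt libraries. Both mutants were below all wt libraries. The mean was 49.9 ± 15.2 (SD, n = 2) in the mutant and 156 ± 29.0 (SD, n = 3) in wt, a log2 fold change of -1.62 (SE 0.253, limma adjusted p = 0.0177). Without wt 1, wt 2 or wt 3 its limma adjusted p was 0.0440 to 0.102. In the authors' deposited table its log2 fold change, wt over mutant, was 1.10 with an adjusted p-value of 0.000108.

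Cxcl10 (IP-10), a ligand of CXCR3 on activated T cells, had 127 and 251 normalized counts in the mutants against 424, 577 and 361 in wt. The groups did not overlap. The mutants themselves differed 1.96-fold on the log2(normalized count + 2) scale, and the log2 fold change of -1.31 missed the threshold (95% confidence interval -2.08 to -0.54, limma adjusted p = 0.0564). Ccl12 (MCP-5), which acts on CCR2 in the mouse, had 114 and 97.8 in mutant libraries against 250, 669 and 269. in wt Here the mutants lay close together and wt 2 stood 2.67-fold above wt 1 on the log2(normalized count + 2) scale. Its log2 fold change was -1.74 (95% confidence interval -2.75 to -0.72, limma adjusted p = 0.0558), and without wt 2 it was -1.28 and passed (limma adjusted p = 0.0292). DESeq2 on recovered reads called both lower, and so did the authors' deposited table (log2 fold changes, wt over mutant, of 0.72 for Cxcl10 and 0.90 for Ccl12). On the opposite strand, Art3 shares 133 bases with the exons of Cxcl10, or 5.91% of them.

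Cxcl9, another CXCR3 ligand of this kind, was too low for the test. It had 1 read in each mutant library against 8, 10 and 10 reads in wt 1 to 3. With the minimum on counts lowered to 1 normalized count in any library, limma called it lower (adjusted p = 0.0383). The authors' deposited table did not call Cxcl9. Cxcl11, also a CXCR3 ligand but not annotated as protein coding in the table, had 0 reads in both mutant libraries against 5, 3 and 4 reads in wt.

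The chemokines that act on CCR2, the receptor that brings monocytes into inflamed tissue, did not pass. Ccl2 (MCP-1) had 3816 and 5622 normalized counts in the mutants against 5353, 8429 and 5142 in wt, so mutant 2 lay among the wt libraries (log2 fold change -0.41, 95% confidence interval -1.03 to 0.21, limma adjusted p = 0.319). Ccl7 (MCP-3) had 2165 and 3111 in mutant libraries against 3294, 6290 and 3237 in wt, without overlap (-0.65, 95% confidence interval -1.41 to 0.12, limma adjusted p = 0.216). In Ccl2 and Ccl7, as in Ccl12, wt 2 was the highest library of the 5. The wt libraries spanned 1.64-fold for Ccl2, 1.94-fold for Ccl7 and 2.67-fold for Ccl12, beside a median of 1.16-fold over all tested genes. Ccl8, a related chemokine paired here with the receptor CCR8, was low at 8.81 and 12.8 in mutant libraries against 11.6, 16.2 and 12.1 in wt. These genes are close relatives, and the sources used here do not say how reads matching several genes were counted.

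The most abundant chemokine per length, Ccl9, and its neighbour Ccl6 did not pass the test, and their intervals were narrow. Ccl9, a CCR1 ligand that mouse macrophages make without stimulation, had 23770.1 and 26387 normalized counts in the mutants against 29128, 28095 and 26875 in wt. That is 8236 normalized counts per kilobase of exon in the mutant and 9206 in wt, the highest level of the tested members in both. Its log2 fold change was -0.16, with a 95% confidence interval of -0.36 to 0.04 that leaves out any change beyond 1 log2 unit. Ccl6, another CCR1 ligand of myeloid cells, had 4427 and 5561 in mutant libraries against 6515, 5157 and 6174 in wt (-0.25, 95% confidence interval -0.59 to 0.08).

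Ccl3 and Ccl4 (MIP-1 alpha and beta), which draw monocytes and T cells, did not pass either. Ccl3 had 1743 and 2871 normalized counts in the mutants against 1970, 1834 and 1943 in wt, and Ccl4 had 1264 and 1884 in mutant libraries against 1639, 1618 and 1549.8. in wt For both genes mutant 1 lay below and mutant 2 above all wt libraries. The 95% confidence intervals of the log2 fold changes were -0.25 to 0.70 for Ccl3 and -0.45 to 0.34 for Ccl4.

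The neutrophil-attracting chemokines Cxcl1 (KC) and Cxcl2 (MIP-2), ligands of CXCR2, varied more between libraries of the same genotype than between genotypes. Cxcl1 was at 191 (mutant 1) and 1286 (mutant 2) normalized counts, against 1078 (wt 1), 193 (wt 2) and 1021 (wt 3). Cxcl2 had 2002 and 10870 in mutant libraries against 7849, 2842 and 7769. in wt Mutant 1 and wt 2 were low for both genes and the other 3 libraries high, and the 5 libraries stood in the same order for both. On the log2(normalized count + 2) scale, Cxcl1 differed 6.68-fold between the mutants and 5.54-fold between wt libraries, more than in 99.9% of tested genes in each case. For Cxcl2 the spread was 5.42-fold between the mutants, more than in 99.8% of tested genes, and 2.76-fold between wt libraries, more than in 98.6%. The log2 fold changes were -0.27 for Cxcl1 (95% confidence interval -2.70 to 2.17) and -0.26 for Cxcl2 (-2.10 to 1.58), so a change of 2-fold in either direction was not detectable in either gene. Cxcl3, of the same group, had 9 and 20 reads in the mutants against 8, 4 and 9 in wt, and Cxcl5 had at most 1 read.

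**Figure D3:**
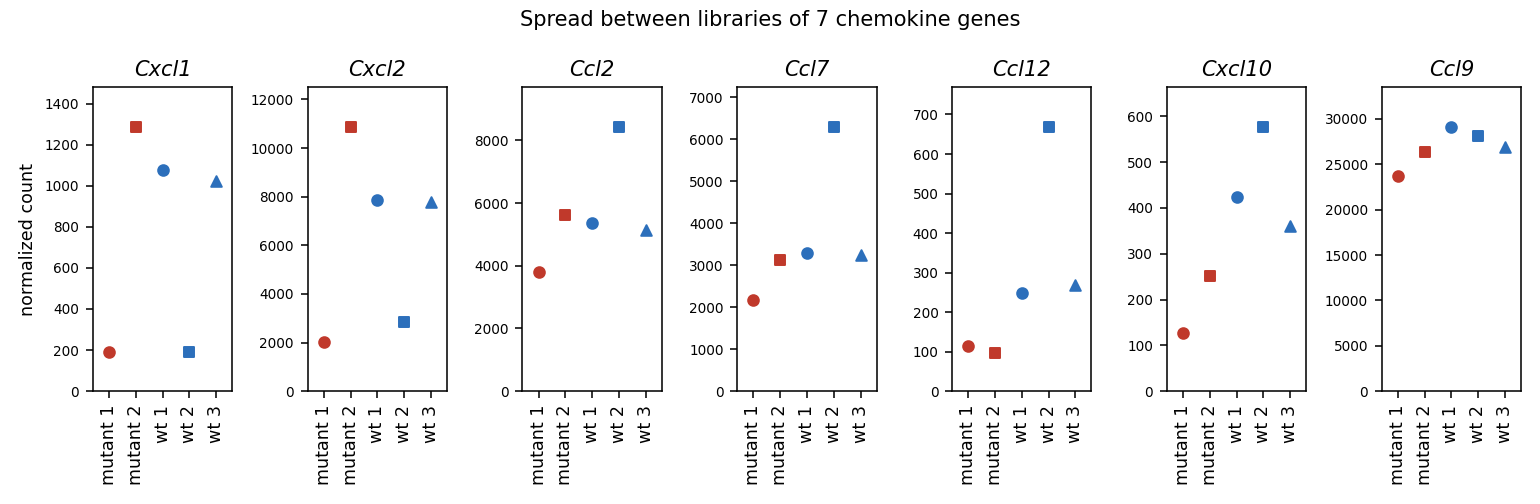
Normalized count of 7 chemokine genes in each library on linear axes from 0, mutants in red to the left of wt in blue. Cxcl1 and Cxcl2 are low in mutant 1 and wt 2, Ccl2, Ccl7, Ccl12 and Cxcl10 are highest in wt 2, and Ccl9 is shown as a gene with little spread.

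Of the 4 tested chemokines of type 2 and myeloid responses, Ccl6, Ccl9, Ccl22 and Ccl24, only Ccl22 fell. Ccl22 (MDC, ENSMUSG00000031779, GRCm38 chromosome 8, 94745590 to 94751699, plus strand), which draws regulatory and type 2 helper T cells through CCR4, had 56.8 and 72.3 normalized counts in the mutants against 129, 126 and 127 in wt. The wt libraries spanned only 1.03-fold and both mutants lay below them. The mean was 64.5 ± 10.99 (SD, n = 2) in the mutant and 127 ± 1.87 (SD, n = 3) in wt, a log2 fold change of -0.97 (SE 0.165, limma adjusted p = 0.0228). Without 1 wt library its limma adjusted p was 0.0896 to 0.128. Ccl17, the other CCR4 ligand, had 2 reads in each mutant library and 0 in wt, within the 3 reads that a count of 0 allows, and Ccr4 itself had at most 4 reads. Ccl24 (eotaxin-2), a CCR3 ligand, had 16.6 and 19.1 normalized counts in the mutants against 9.12, 3.59 and 5.56 in wt (log2 1.35, limma adjusted p = 0.0792).

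Among chemokines of tissue homeostasis, 3 were tested and none passed by limma. Cxcl16, a membrane-bound chemokine and scavenger receptor for oxidised lipid, had 1971 and 3645 normalized counts in the mutants against 2129, 1616 and 2065 in wt, so mutant 2 alone lay above the wt range (log2 0.48, 95% confidence interval -0.15 to 1.11, limma adjusted p = 0.258). On the opposite strand, Zmynd15 shares 18.3% of the Cxcl16 exon bases. Ccl25, the gut and thymus ligand of CCR9, had 198 and 159 in mutant libraries against 149, 158 and 121 in wt, and Ccl27a had 15.7 and 15.9 in mutant libraries against 10.8, 9.87 and 11.1. in wt None of the 3 had an unadjusted limma p under 0.05 or was called by edgeR or DESeq2. Cxcl12 and Cxcl14 had at most 8 and 7 reads.

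Among the CC receptors, Ccr3 and Ccr7 fell, while the abundant Ccr2 and Ccr1 did not pass. Per kilobase of exon, Ccr2 averaged 2149.9 normalized counts in the mutant and 2752 in wt, and Ccr1 averaged 1357 in the mutant and 1106 in wt. Ccr2, the receptor of CCL2, CCL7 and CCL12, had 11526 and 17540.2 normalized counts in the mutants against 21241, 13917 and 20645 in wt, with overlap (log2 -0.36, 95% confidence interval -0.95 to 0.22, limma adjusted p = 0.348). Ccr1 had 3128 and 4561 in mutant libraries against 3396, 2758 and 3249 in wt (log2 0.27, 95% confidence interval -0.14 to 0.69). Ccr1 and Ccr1l1 are close paralogues, so reads of their shared stretches could have been assigned to either.

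Ccr3 (ENSMUSG00000035448, GRCm38 chromosome 9, 124021972 to 124031689, plus strand), the eotaxin receptor, known best from eosinophils, had 59.7 and 42.5 normalized counts in the mutants against 137, 140 and 117 in wt. The groups were apart, with means of 51.1 ± 12.1 (SD, n = 2) in the mutant and 131 ± 12.6 (SD, n = 3) in wt. The mutant over wt log2 value was -1.34 (SE 0.2005, limma adjusted p = 0.0157), the lowest adjusted p among the members. Without 1 wt library the limma adjusted p was 0.0749 to 0.101, and the authors' deposited table did not call the gene (adjusted p-value 0.135). The 4 eosinophil markers other than Ccr3 summed to 19.6 and 31.9 normalized counts in the mutants and 18.8 to 43.6 in wt, and their granule gene Epx had at most 1 read. Its ligand gene Ccl11 (eotaxin) had 1 read in wt 3 and 0 elsewhere.

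Ccr7 (ENSMUSG00000037944, GRCm38 chromosome 11, 99144196 to 99155077, minus strand), which leads dendritic cells and T cells to lymph nodes, had 52.8 and 77.6 normalized counts in the mutants against 175, 129 and 143 in wt. Both mutants lay below the wt libraries, at a mean of 65.2 ± 17.5 (SD, n = 2) in the mutant against 149 ± 23.5 (SD, n = 3) in wt. The mutant over wt log2 value was -1.18 (SE 0.224, limma adjusted p = 0.0305), and without 1 wt library the limma adjusted p was 0.0844 to 0.139. The 6 dendritic cell markers other than Ccr7 summed to 159 and 233 normalized counts in the mutants and 139 to 142 in wt. They did not move together: Siglech was at 35.2 and 112 normalized counts in the mutants and 7.18 to 21.6 in wt, whereas Xcr1 was at 2.94 and 4.25 in the mutants and 10.8 to 18.5 in wt, and Clec9a at 2.94 and 6.38 in the mutants and 8.97 to 10.2 in wt. None of the 6 was called, and their part in the Ccr7 values was not tested. Its ligands Ccl19 and Ccl21a were not analysed here.

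The other CC receptors were low. Ccr1l1 had 10.8 and 8.51 normalized counts in the mutants against 16.6, 18.8 and 21.3 in wt (log2 -0.85, limma adjusted p = 0.101). Ccr10, the skin-homing receptor, had 40.1 and 44.7 in mutant libraries against 24.04, 26.02 and 37.1 in wt, and Ccr9, the gut-homing receptor, had 28.4 and 38.3 in mutant libraries against 21.6, 26.02 and 23.2. in wt Both lay above the wt range without passing (log2 0.54 and 0.46, limma adjusted p = 0.208 and 0.250). In GENCODE M21, 18.8% of the exon bases of Ccr9 lie under a transcript of the opposite strand.

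Cxcr4, the CXCL12 receptor that holds leukocytes in marrow and tissue, was the only member called higher by any tool run over all 5 libraries. It had 2061 and 3903 normalized counts in the mutants against 1377, 819 and 1280.1 in wt, without overlap. On the log2 scale it was higher by 1.33 (SE 0.321, 95% confidence interval 0.55 to 2.10), which missed the threshold by limma (adjusted p = 0.0553). It was called by edgeR (adjusted p = 0.0486) and DESeq2 (adjusted p = 0.000363). In the authors' deposited table it was also called higher in the mutant, with a log2 fold change, wt over mutant, of -0.83 and an adjusted p-value of 0.01001. Per kilobase of exon it averaged 1649 normalized counts in the mutant and 641 in wt. Neutrophil markers, a cell type known for CXCR4, summed to 6008 and 7871 in the mutants and 2797 to 3878 in wt. Of the 7 only Mmp8 was called higher by limma (log2 1.39, adjusted p = 0.00141). S100a8 and S100a9 had log2 fold changes of 0.01 and -0.10, and Ly6g had at most 1 read in any library. Other marker sums were higher in the mutants too. T cell markers summed to 644 and 1233 in the mutants and 255 to 332 in wt, but 4 of the 7 had at most 3 reads in every library. B cell markers summed to 5492 and 6541 in the mutants and 2606 to 3261 in wt. By limma, 1 of 2 tested T cell markers and 1 of 7 tested B cell markers were called higher. The part of the neutrophil, T cell and B cell genes in the Cxcr4 values was not tested. Its ligand gene Cxcl12 had 4 and 8 reads in the mutants against 3, 5 and 6 in wt.

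Cxcr6, the CXCL16 receptor, had 13.7 and 30.8 normalized counts in the mutants against 33.2, 23.3 and 27.8 in wt and did not pass (log2 -0.39, limma adjusted p = 0.499). Among atypical receptors, which bind chemokines without G protein signalling and remove them, Ackr4 had 17.6 and 14.9 in mutant libraries against 11.6, 3.59 and 11.1 in wt (log2 0.86, limma adjusted p = 0.253). Cxcr2, the receptor of CXCL1 and CXCL2, had 4 reads in each mutant library against 8, 11 and 2 in wt, and Cxcr5 had at most 7 reads.

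Of the 19 members below the minimum, 11 had at most 3 reads in every library. These were Ackr1, Ackr3, Ccl1, Ccl11, Ccl17, Ccl20, Ccl28, Ccr6, Cxcl5, Cxcl17 and Cxcr1. The limit set by a count of 0 is 3 reads, or 2.94 to 3.19 normalized counts in a mutant library and 2.49 to 2.78 in a wt library, with counting error alone considered. The other 8 were Ackr2, Ccr4, Cxcl3, Cxcl9, Cxcl12, Cxcl14, Cxcr2 and Cxcr5, with a highest count of 20 reads, in Cxcl3. No difference was detectable at this depth for the 11 genes at 3 reads or fewer.

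Estimated fold changes varied along the gene clusters. On chromosome 11, Ccl5 (log2 -1.62) lies 42.4 kb from Ccl9 (-0.16), which is followed by Ccl6 (-0.25), Ccl3 (0.22) and Ccl4 (-0.05). In the other cluster of that chromosome, Ccl12 (-1.74) lies 11.8 kb from Ccl8 (-0.26). On chromosome 9, Ccr1l1 (-0.85), Ccr3 (-1.34) and Ccr2 (-0.36) follow each other. Cxcl1 and Cxcl2, which varied together between libraries, lie 10.8 kb apart on chromosome 5. The differences between neighbours were not themselves tested.

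**Figure D4:**
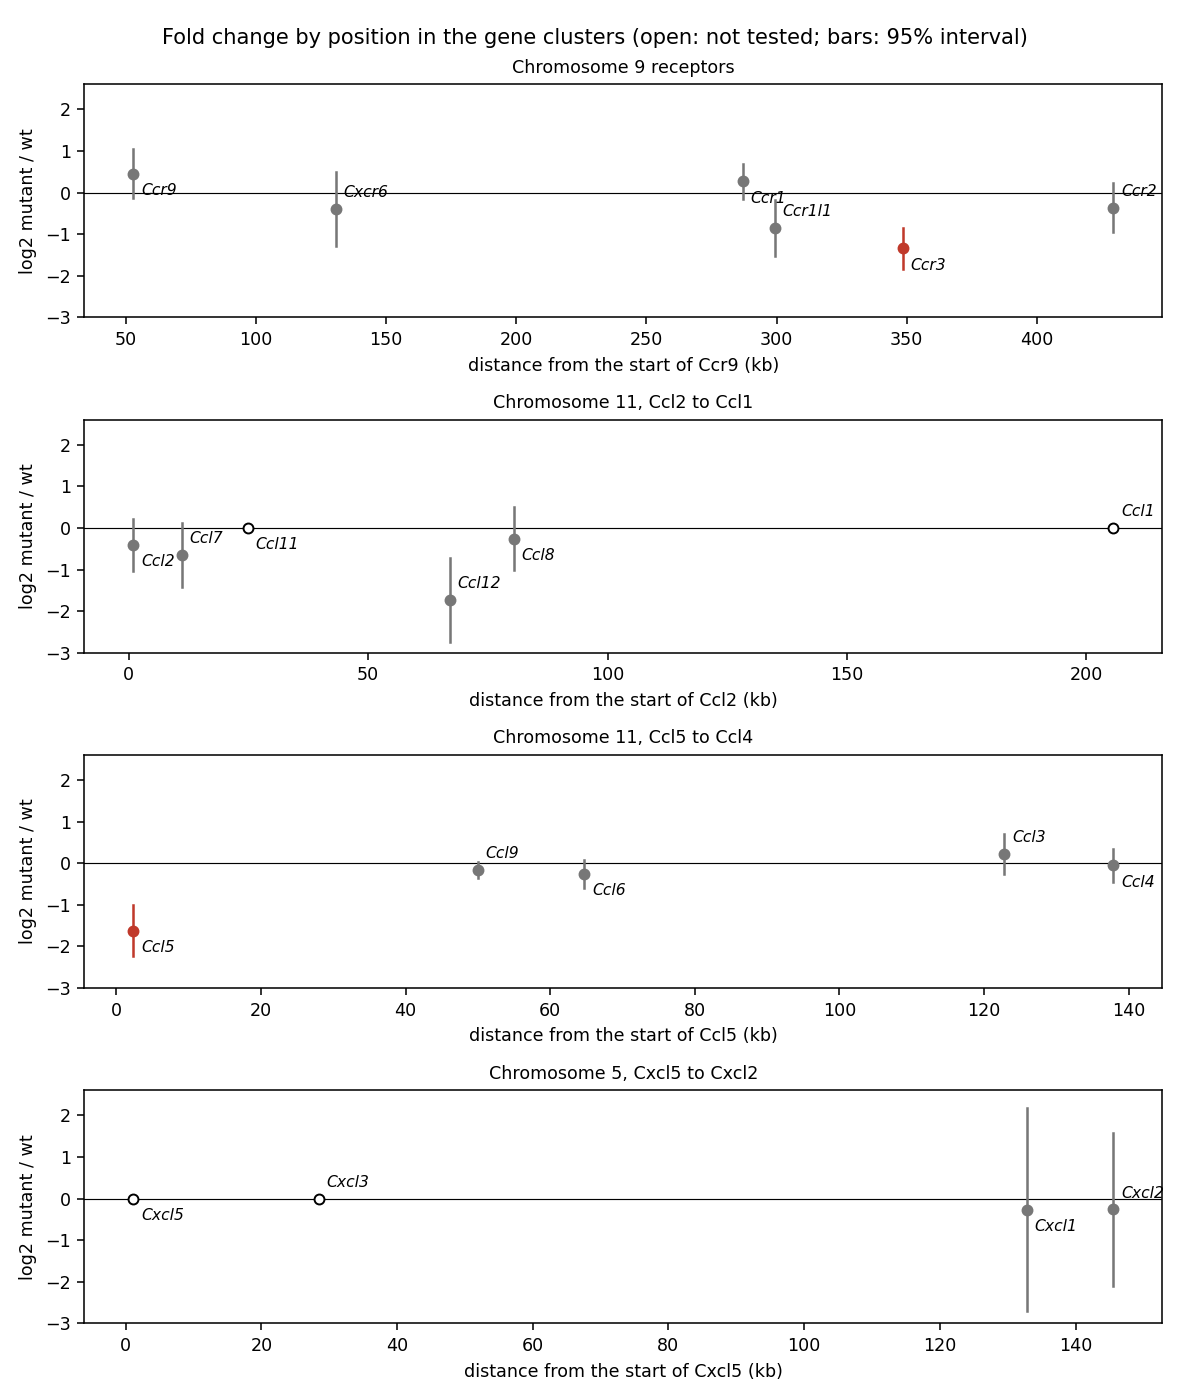
Log2 fold change, mutant over wt, with its 95% confidence interval against distance in kilobases from the first gene of each of 4 gene clusters, with genes at an adjusted p under 0.05 in red and untested genes as open circles at 0. Ccl5 and Ccr3 stand below 0 and the intervals of Ccl9, next to Ccl5, and of Ccr2 include 0, while that of Ccr1l1, the nearest plotted neighbour of Ccr3, lies below 0.

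Mutant 2 was above mutant 1 in most members. It was higher in 23 of the 28 tested members, beside 50.6% of all tested genes. The 5 exceptions were Ccl12, Ccl25, Ccr3, Ccr1l1 and Ackr4. For Ccl5, Ccl22, Ccr3 and Ccr7, the log2 difference of each mutant from the wt mean was -1.93 and -1.32 for Ccl5, -1.14 and -0.80 for Ccl22, -1.11 and -1.58 for Ccr3 and -1.45 and -0.91 for Ccr7, mutant 1 before mutant 2. That each mutant library was below the wt mean for these 4 follows from the lack of overlap given above. The median spread of the tested members was 1.44-fold between mutants and 1.35-fold over wt libraries, beside 1.18-fold between mutants and 1.16-fold over wt libraries for all tested genes.

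Beyond these families, 48 genes of chemokine signalling were examined, of which 46 were tested, 3 rose and 2 fell, with a median log2 fold change of 0.00. Over all tested genes 3.71% were called higher and 4.89% lower, so these counts are near the general rate. Ppbp (CXCL7), a platelet chemokine outside the symbol rule, rose to 57.7 and 85.1 normalized counts in the mutants, against 22.4, 33.2 and 20.4 in wt (log2 1.43, limma adjusted p = 0.0385). Platelet and megakaryocyte markers summed to 150 and 138 in the mutants and 86.1 to 117 in wt. The G protein gamma subunit Gng12 (0.52, limma adjusted p = 0.00989) and the catalytic subunit of PI3K gamma, Pik3cg (0.31, limma adjusted p = 0.0373), rose. Among those that fell was Rgs18 (-0.63, limma adjusted p = 0.0229), which shortens G protein signals. Leaving out wt 1 or wt 3 ended each of these 5 calls, as did leaving out wt 2 for all except Gng12, and Ppbp also missed the threshold without mutant 2 (limma adjusted p = 0.0898).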

How the data were processed

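Strand-specific mRNA libraries of 2 mutant and 3 wt samples were analysed. STAR, featureCounts (Subread), DESeq 1.6.1 and mm10 are named in the submitters' processing notes, with settings and annotation release not given in the sources used here. Deposited by the authors was a signal that is, judged from its values, the reads of a gene over the library's size factor: 100% of values were whole multiples of 1 read within 0.001 reads, and reads were recovered so. The authors' deposited log2 fold change and adjusted p-value, per the file headers, are quoted only as such, and their fit drew on further libraries not analysed here. The authors' gene lengths equal the GENCODE M21 exon length for 98.4% of matched genes, but only 2.27% of start positions match, so GENCODE M21 positions on GRCm38 were used, matched by Ensembl identifier.

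Genes at 10 or more normalized counts in at least 2 libraries were tested with limma (version 3.58.1, R 4.3.3; trend on intensity) on log2(normalized count + 2), two-sided, with Benjamini-Hochberg adjustment at 0.05. The fit was tested on simulated counts with the same variation set for all genes, so genes as variable as Cxcl1 were not covered. Alternatives were other pseudocounts and minimums, TMM factors, edgeR 4.0.16, DESeq2 1.42.0, a replicate term and leaving out each library. Tested members are named, with values in every library for those called or averaging 500 or more normalized counts; 2 genes that were called are not reported here. Members, gene lists and tests were chosen with earlier results of these data known.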

Additional observations from a re-analysis of the deposited data

How the results depend on the processing

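The 5 members called lower by limma were also called with a pseudocount of 0.5 or 8, a minimum of 50, TMM factors, edgeR and DESeq2, and with no minimum, which added Cxcl9 for 6 lower. Members called higher were 1 by edgeR and 1 by DESeq2 (Cxcr4 in both) against 0 by limma. Leaving out 1 library gave 0 to 4 members higher and 0 to 7 lower, and 29 to 2062 of all genes higher and 173 to 2929 lower, with the low counts without a wt library and the high ones without mutant 1, where the lone mutant is assumed to vary like wt. DESeq2 called 1121 of all genes higher and 1308 lower. The replicate block left 1 residual degree of freedom and called 0 members lower, and 6 of all genes higher and 75 lower. The replicate numbers are not said to mark pairs, and same-numbered libraries deviated in opposite directions (r = -0.23 and -0.36 across genes). Deviations of 2 mutants from their own mean mirror each other, so both values rest on the same difference between them. They cannot show whether the numbers mark pairs. Of the members' log2 fold changes under alternatives, 313 kept direction and side of the threshold. A further 18, all in genes called in the main fit, kept direction but lost their call. The rest gained a call or changed sign, and the 10 that changed sign were not in called genes. Leaving out 1 library gave -0.14 to 0.58 for Ccl3, -0.34 to 0.23 for Ccl4, -0.93 to 0.14 for Cxcr6, -1.48 to 0.96 for Cxcl2 and -1.64 to 1.10 for Cxcl1, which was 0.16 without wt 1 and 0.12 without wt 3. Cxcl2 was 0.065 by edgeR and 0.071 by DESeq2, and Cxcl1 was 0.12 with the replicate block. The cause was not tested. Depth limits the 19 untested members, and the number of libraries limits the others.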
